A study of Mus musculus with 2 samples.

Results

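Apoe and Apod are 2 of the 31053 genes counted in single cells of the mouse cervix, and both were found by their symbols in the gene lists of the count matrices. The genes were picked with their levels in these libraries already known, so levels and library differences are given as descriptions, with no test. Cells came from ovariectomised C57BL6/129 females aged 7 to 8 weeks at surgery, which leaves both groups without ovarian hormones. After 2 weeks of recovery the control mice were left untreated over 15 days. The progesterone mice were injected under the skin with E2 (estradiol, 100 µg per day in corn oil) on 2 days, which primes expression of the progesterone receptor. They then carried a 25 mg pellet made for release over 21 days, about 1 mg of progesterone per day. The groups therefore differed in E2, oil, injections and implant as well as in progesterone. Each group is 1 library from 9 pooled mice, so differences between libraries have no replicate check.

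Apolipoprotein E (Apoe) is a secreted protein that coats lipoprotein particles and brings their cholesterol to cells by binding lipoprotein receptors. Macrophages make it in quantity, and liver X receptors, which sense oxidised sterols, switch it on together with the cholesterol pumps Abca1 and Abcg1. Apolipoprotein D (Apod) carries the same family name but is a lipocalin, a small barrel-shaped carrier of lipids such as arachidonic acid and progesterone, and it is made mostly by fibroblasts and glial cells.

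Apoe (ENSMUSG00000002985) lies on the minus strand of chromosome 7 at 19696109 to 19699188 (GRCm38, GENCODE M21), in a cluster of apolipoprotein genes. Tomm40 is 2125 bp away and Apoc1 3449 bp away. Apod (ENSMUSG00000022548) lies on the minus strand of chromosome 16 at 31296192 to 31314808, and its nearest gene is Ppp1r2 at 20915 bp. Both are protein-coding genes, and no other annotated gene overlaps either. The 250 bases before each start are shown because a steroid hormone separates the groups. They are from RefSeq (GRCm38.p6), run 5′ to 3′ on the gene's strand, and carry in capitals each match to AGAACA, the half-site bound by progesterone, glucocorticoid and androgen receptors.
Apoe, chr7:19699189-19699438, minus strand: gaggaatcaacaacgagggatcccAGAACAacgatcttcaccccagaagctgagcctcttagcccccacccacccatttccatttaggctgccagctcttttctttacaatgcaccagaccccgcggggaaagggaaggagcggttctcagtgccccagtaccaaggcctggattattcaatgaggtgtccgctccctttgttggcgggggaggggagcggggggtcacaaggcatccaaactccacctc
Apod, chr16:31314809-31315058, minus strand: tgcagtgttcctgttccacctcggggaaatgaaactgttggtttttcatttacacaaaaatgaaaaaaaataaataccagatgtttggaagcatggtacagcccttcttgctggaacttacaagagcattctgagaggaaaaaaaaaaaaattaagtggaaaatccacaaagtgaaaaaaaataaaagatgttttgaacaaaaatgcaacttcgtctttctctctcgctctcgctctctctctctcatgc
The motifs searched on both strands were AGAACA with its reverse complement TGTTCT, the TATA box as TATAAA with its reverse complement TTTATA, and the E-box as CACGTG, which reads the same on both strands. The Apoe window shown, at the first of 3 starts in RefSeq, held 1 AGAACA beginning 226 bases before the start, and the Apod window held none of the 3 motifs. At the other two Apoe starts, both inside the annotated gene, no AGAACA was in the window, and 1 of these windows held overlapping TATA box matches. AGAACA or its reverse is in 16.1% of the 32851 mouse windows of this length, so that a match is a description of letters and not a binding site. The windows also differed in base composition, with 57.2% G and C for Apoe and 36.4% for Apod.

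The control library had 5368 cell barcodes and 21658684 unique molecular identifiers (UMIs, 1 per captured transcript), and the progesterone library 10853 barcodes and 44811069 UMIs. After filtering, 4579 control cells (median 3733 UMIs) and 8541 progesterone cells (median 4151 UMIs) were analysed, and 12 of their barcodes occurred in both libraries. Cells were clustered without Apoe, Apod or any gene of the lists below, and clusters were named from markers. Basal-like cells (Krt5, Krt14, Trp63) numbered 1546 in the control and 4532 in the progesterone library, suprabasal-like cells (Krt10, Krtdap) 1425 and 469, luminal-like cells (Krt8, Krt18) 508 and 2200, fibroblast-like cells (Dcn, Col1a1, Lum) 77 and 116, and macrophage-like cells (C1qa, C1qb, Csf1r) 169 and 112. Every marker on the fixed list of each of these 5 classes was above 0 in both libraries. Levels are UMIs of the gene per 1000000 UMIs of the class (CPM), and brackets hold 95% intervals that cover counting error only.

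Apoe was read in all 5 classes of both libraries, at widely different levels. In the control library fibroblast-like cells had the highest level, 4251 CPM [3835 to 4700], followed by macrophage-like cells with 3899 [3678 to 4129] and blood endothelium-like cells with 3257 [2846 to 3710]. The counting intervals of neighbours in this order overlapped. Basal-like cells had 750.4 CPM, suprabasal-like cells 105.9 and luminal-like cells 17.3, each apart from the next.

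In the progesterone library the order was different. Macrophage-like cells were far above all others with 17020.3 CPM [16570 to 17480]. Blood endothelium-like cells had 2864 CPM [2593 to 3154], basal-like cells 2560 [2538 to 2582] and fibroblast-like cells 2026 [1888 to 2171]. Suprabasal-like cells with 244 CPM and luminal-like cells with 83.3 were again lowest. Basal-like cells are so numerous that they held 59.4% of all Apoe UMIs in the control and 78.8% in the progesterone library, against 14.3% and 8.23% for macrophage-like cells.

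**Figure D1:**
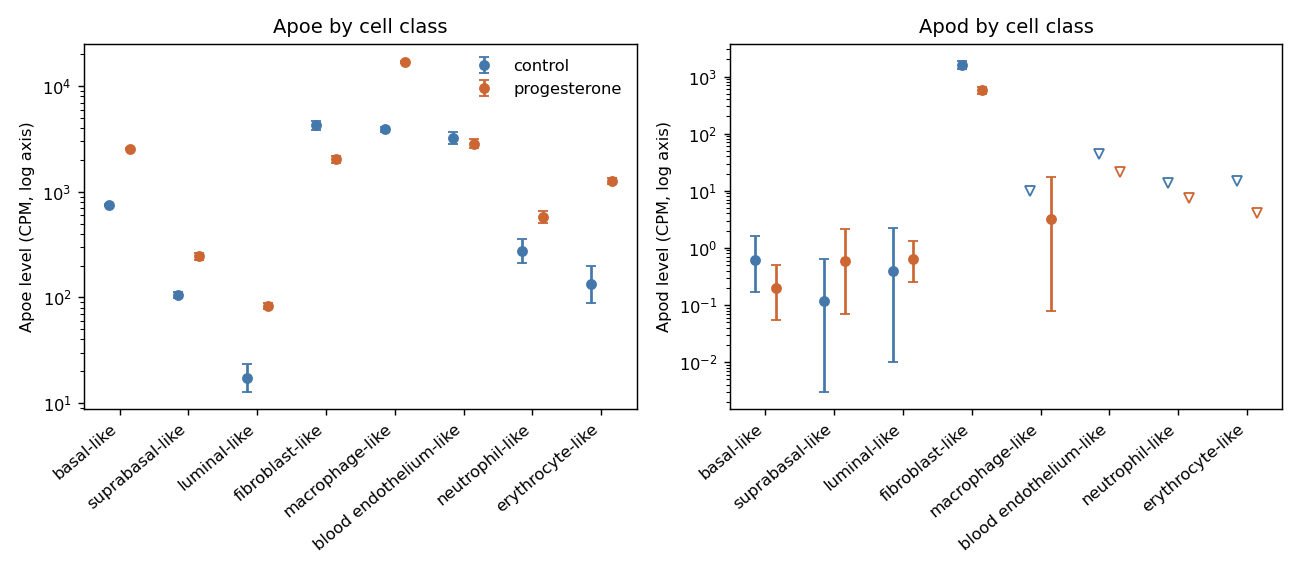
Level of Apoe (left) and Apod (right) in CPM on log axes by cell class, with control in blue and progesterone in orange. Points are 1 library each with 95% counting intervals, and open triangles mark the level of 3 counts where no UMI was read. Apoe in macrophage-like cells is higher in the progesterone library and in fibroblast-like cells lower, and Apod stands at 1618 and 577 CPM in fibroblast-like cells and under 5 CPM in each other class where it was read.

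Basal-like cells, the layer that carries stem and progenitor cells of squamous epithelium, had 4842 Apoe UMIs in the control and 51834 in the progesterone library. The level was 3.41-fold higher in the progesterone library [3.31 to 3.51]. Of the 12225 genes with at least 20 UMIs in this class, 9.17% were at least 2-fold higher there and 7.39% at least 2-fold lower. The mean per cell was 3.13 UMIs in the control and 11.4 in the progesterone library, and Apoe stood at rank 154 of all genes in the former and rank 81 in the latter. After thinning to a depth of 2000 UMIs, an Apoe UMI was found in 47.2% of control basal-like cells [44.0 to 50.4] and in 80.7% of progesterone ones [79.4 to 82.0]. That left out 565 and 803 shallower cells, and the shares without thinning were 66.4% and 78.9%. The 9 basal markers summed to 32264 CPM in the control and 13782 CPM in the progesterone library. Most of both sums came from Krt14, at 21347 and 6178 CPM, and Krt5, at 6010 and 3138 CPM. The lower sum is therefore mainly that of these keratins and not of the markers as a whole. The part of the markers in the Apoe difference was not tested.

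The libraries filled different basal clusters. Clusters 10, 3, 7 and 6 held most control cells (469, 449, 290 and 241), and clusters 6, 10 and 2 most progesterone cells (1905, 1456 and 664). In cluster 6, which was also marked by Trp63 and Jag2, Apoe had 1984 CPM in the control and 4158 in the progesterone library, 2.10-fold higher [1.98 to 2.22]. In cluster 7, led by the division genes Top2a and Mki67, it was 404.5 CPM and 1618 CPM, 4.00-fold higher [3.71 to 4.32]. In cluster 3 it was 367 and 1129 CPM, the latter from 14 cells. In cluster 2, marked by Krt12 and Krt15, it was 671 and 851 CPM, 1.27-fold higher [1.11 to 1.46].

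Cluster 10 went the other way. It had 2163 CPM of Apoe in the control and 1387 CPM in the progesterone library, 1.56-fold lower in the latter [1.47 to 1.65]. Its control cells were shallow, with a median of 1170 UMIs against 2361.5. With every cell thinned to 500 UMIs, which left out 0 cells, the share with an Apoe UMI was 50.5% in the control [45.9 to 55.1] and 32.3% in the progesterone library [29.9 to 34.8]. At 1000 UMIs it was 59.4% and 46.6%. At 2000 UMIs it turned to 48.0% and 63.1%, over the 98 control and 834 progesterone cells that were deep enough, with 371 and 622 left out. Of the 5 basal clusters with at least 10 cells in each library, Apoe was higher in the progesterone library in 4 and lower in 1. Cluster 25, led by interferon-induced genes such as Isg15, was almost all from the progesterone library (185 of 191 cells) and had 2392 CPM there. Averaged over the 5 clusters, the log2 difference was 0.88 in place of 1.77 for the summed cells. With each cell weighted equally it was 0.73. With a stricter cell filter (500 genes or more, no more than 10% mitochondrial UMIs) it was 0.69. Cells were then clustered and named anew, which gave 383 control and 2027 progesterone basal-like cells with 2505 and 4028 CPM of Apoe.

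**Figure D2:**
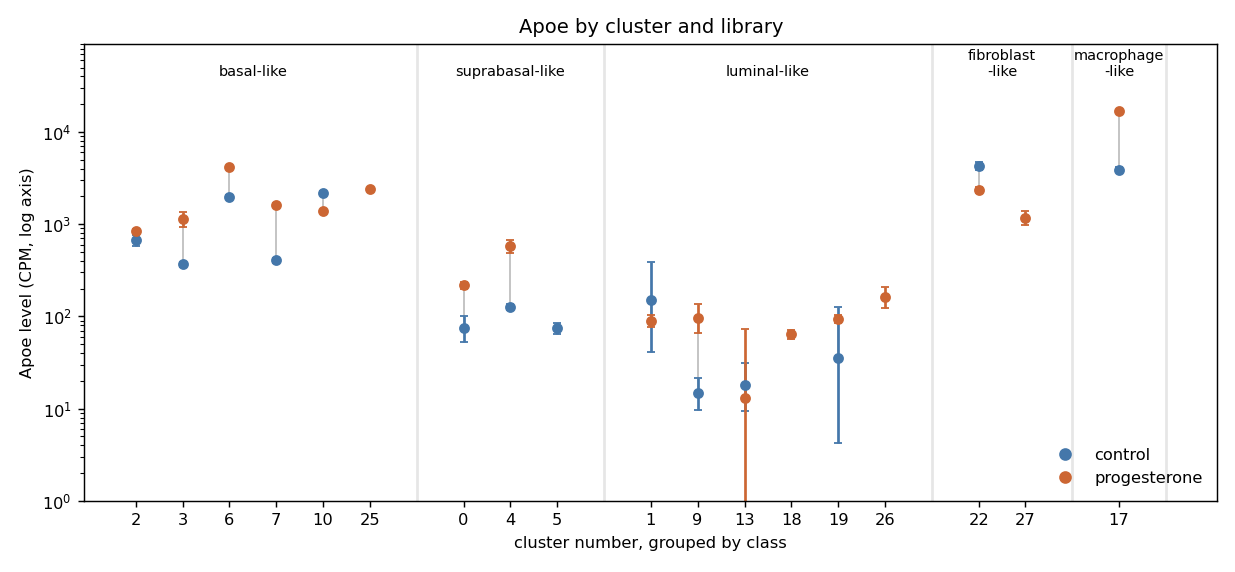
Apoe level in CPM (log axis) for each cluster, grouped by class, with control in blue, progesterone in orange and 95% counting intervals. Only libraries with at least 10 cells and 1 Apoe UMI in a cluster are drawn. Among basal-like clusters the 2 libraries lie closest in cluster 2, and cluster 10 is the 1 in which control is above progesterone.

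Suprabasal-like cells, the maturing layers above the basal one, had 913 Apoe UMIs in the control and 836 in the progesterone library. The level was 105.9 CPM [99.2 to 113] and 244 CPM [228 to 262], 2.31-fold higher in the progesterone library [2.10 to 2.54]. In this class 7.03% of 10676 genes were at least 2-fold higher and 5.95% at least 2-fold lower. Here too the libraries met in few clusters. Cluster 4 held 1008 of the control cells and was led by Sprr2f, Sprr2d and Lcn2, with 0 suprabasal markers among its top genes. Cluster 5, led by Krt16 and Krt6b, held another 341 control cells. Cluster 0, led by Krt10, held 424 of the progesterone cells. The class ratio therefore sets unlike clusters against each other. Within cluster 4 Apoe was at 125.6 CPM in the control and 577 CPM in the 44 progesterone cells, of which 1 cell held 67 of the 156 UMIs (42.9%). It was within cluster 0 at 74.1 CPM in 76 control cells and 216 CPM in the progesterone library.

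Luminal-like cells, the columnar lining that secretes mucus, had the lowest Apoe of the 5 classes. The counts were 44 UMIs in 508 control cells and 919 UMIs in 2200 progesterone cells, or 17.3 CPM [12.6 to 23.3] and 83.3 CPM [78.0 to 88.8]. The ratio was 4.81 [3.55 to 6.66], in a class in which 16.0% of 11565 genes were at least 2-fold higher in the progesterone library and 6.49% at least 2-fold lower. Clusters 9 and 13 held most control cells and clusters 19, 18 and 1 most progesterone cells. Of the 4 luminal clusters that had 10 or more cells from each library, 3 had a ratio whose interval includes 1, and each of these had 4 UMIs or fewer in 1 library. Clusters 1, 13 and 19 had ratios of 0.59 [0.23 to 2.20], 0.73 [0.02 to 4.93] and 2.64 [0.73 to 21.9]. In cluster 9 it was 6.60 [3.79 to 11.6], and there 1 cell held 22 of the 31 progesterone UMIs (71.0%).

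Neutrophil-like cells, which are not known as a main source of apolipoprotein E, give 1 measure of the level that free RNA in the droplets could leave. They had 276 CPM of Apoe in the control and 581 CPM in the progesterone library. A UMI was read in 5.20% of 346 control cells (median 581 UMIs) and in 20.3% of 444 progesterone cells (median 776.5 UMIs), against 4.72% and 19.9% of the much deeper luminal-like cells (medians 4635 and 4852 UMIs). With every cell thinned to 500 UMIs the shares were 4.91% and 13.1% in neutrophil-like, 0.787% and 4.41% in luminal-like, and 5.40% and 10.9% in suprabasal-like cells. The luminal-like shares lay below the neutrophil-like ones, so a level of the luminal-like cells themselves cannot be told apart from free RNA. The counting intervals of suprabasal-like and neutrophil-like shares at this depth overlapped. Thinning keeps a smaller part of the deeper suprabasal-like cells, so this overlap cannot separate their own RNA from free RNA. Unthinned, 1425 control and 469 progesterone suprabasal-like cells held 913 and 836 Apoe UMIs. The 346 and 444 neutrophil-like cells held 61 and 233. The part of free RNA in luminal-like and suprabasal-like cells was not tested. Basal-like cells at 500 UMIs had 33.7% and 54.2%. Erythrocyte-like cells, the other class set beside them for free RNA, had 135 CPM of Apoe in the control and 1270 CPM in the progesterone library. That is a ratio of 9.40 [6.42 to 14.3], from 27 UMIs in 39 cells and 934 UMIs in 143 cells. The level left by free RNA thus depends on the class used to read it, and its part in the library differences was not tested.

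The genes that mark each likely source give a further measure of free RNA. In basal-like cells C1qa, C1qb and C1qc together had 21 control and 180 progesterone UMIs, and Dcn, Col1a1 and Col3a1 had 9 and 90. At the ratios of Apoe to these genes in macrophage-like and fibroblast-like cells, they would bring 10.4 and 201 Apoe UMIs. That is 0.215% and 0.388% of those read in basal-like cells. The sums leave out free RNA from basal-like cells themselves, so they cannot show carry-over between basal clusters. In progesterone neutrophil-like cells the same sum, with Krt5 and Krt14 added for basal-like cells, came to 239 UMIs against 233 observed, and in control ones to 27.9 against 61. In erythrocyte-like cells it was 65.1 against 27 observed in the control and 766 against 934 in the progesterone library. The sum thus missed the count by more than 2-fold in both control cases. In suprabasal-like cells, which make keratins of their own, it was 6571 against 913 in the control and 16007 against 836 in the progesterone library. In luminal-like cells it was 303 against 44 and 4762 against 919, so in neither class does the sum serve as an estimate. In fibroblast-like cells it came to 0.9997% of the Apoe UMIs in the control and 29.6% in the progesterone library, and the part of this other RNA in their difference was not tested.

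Macrophage-like cells had the largest difference in Apoe UMIs per cell of the 5 classes. In the control library 169 cells held 1165 UMIs, a median of 1 per cell and at most 80. In the progesterone library 112 cells held 5418 UMIs, a median of 30.5 per cell and at most 378. The level of 3899 CPM in the control and 17020.3 CPM in the progesterone library made a ratio of 4.37 [4.10 to 4.66], while 5.67% of 4201 genes in the class were at least 2-fold higher and 7.83% at least 2-fold lower. Apoe stood at rank 29 among the genes of control macrophage-like cells and at rank 5 in the progesterone library.

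The markers of the macrophage-like class were also higher in sum in the progesterone library, though not each of them. The 9 macrophage markers summed to 11622 CPM in the control and 19895 CPM in the progesterone library. Csf1r went the other way, with 934 CPM in the control and 697 CPM in the progesterone library. C1qa, C1qb and C1qc, the chains of complement C1q, came to 16.4 and 46.2 UMIs per cell. Apoe per UMI of these 3 genes was 0.419 in the control and 1.05 in the progesterone library. Among cells with at least 5 C1q UMIs, 114 control cells had Apoe at 5131 CPM [4831 to 5445], and 94 progesterone cells at 20852 CPM [20296 to 21418]. Among the others it was at 878 CPM in 55 cells and 1269 CPM in 18 cells.

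Cells of the class were unequal within each library. Counting only cells with at least 1000 UMIs, the median cell had 719 Apoe UMIs per 1000000 in the control (132 cells) and 11809 in the progesterone library (106 cells), and the upper quartiles were 5267 and 25910. The distributions overlapped, with control cells reaching 43633 and progesterone cells 69434. A UMI was read in 58.0% of all control and 83.9% of all progesterone macrophage-like cells. A further cluster, number 11, carried C1qa, C1qb and C1qc beside 2735 CPM of Krt5 and stayed unnamed. It held 23 control and 322 progesterone cells with 1886 and 4725 CPM of Apoe, and with it the log2 difference for macrophage-like cells was 1.13 in place of 2.13. Without removal of doublets, which are droplets with more than 1 cell, it was 1.25. Clusters were formed and named anew for this, and the class then held 208 control and 460 progesterone cells.

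**Figure D3:**
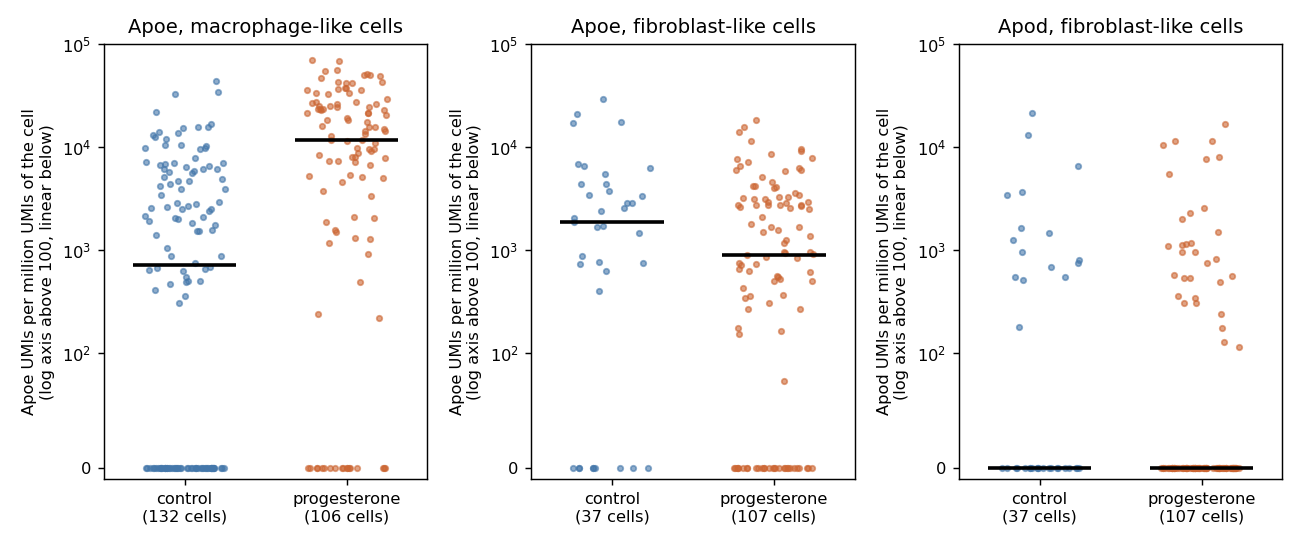
Apoe or Apod UMIs per 1000000 UMIs of the cell in single macrophage-like and fibroblast-like cells with at least 1000 UMIs, on an axis that is logarithmic above 100 and linear below. Each point is a cell, bars are medians, and control is blue and progesterone orange. The macrophage-like medians for Apoe are 719 and 11809, the fibroblast-like ones 1890 and 909, and both Apod medians are 0.

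Fibroblast-like cells differed from macrophage-like and basal-like cells in direction. Apoe had 381 UMIs in 77 control cells and 804 UMIs in 116 progesterone cells. The level of 4251 CPM in the control and 2026 CPM in the progesterone library was 2.10-fold lower in the latter [1.85 to 2.37]. In this class 8.20% of 3245 genes were at least 2-fold lower and 10.1% at least 2-fold higher. Apoe stood at rank 25 in the control and rank 89 in the progesterone library, and a UMI was read in 64.9% of control and 74.1% of progesterone cells, whose median depths were 962 and 2688 UMIs. After thinning to 1000 UMIs the shares were 64.9% [47.5 to 79.8] of 37 cells and 55.1% [45.2 to 64.8] of 107, and their intervals overlapped. That left out 40 and 9 cells. At 500 UMIs, with 0 cells left out, the shares were 50.6% [39.0 to 62.2] and 53.4% [44.0 to 62.8], so the shares do not show the lower level seen in CPM. In blood endothelium-like cells, the other stromal class with a high level, the ratio was 0.88 [0.75 to 1.04], an interval that includes 1.

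Fibroblast-like cells are few, and both ends of the comparison rest on some of them. The highest control cell held 77 of the 381 Apoe UMIs (20.2%). Cluster 27, a group of 16 fibroblast-like cells with a median of 6568 UMIs found in the progesterone library alone, had 1171 CPM of Apoe. In cluster 22, which holds all other fibroblast-like cells, the level was 4251 CPM in the control and 2355 CPM in the progesterone library, 1.81-fold lower [1.59 to 2.05]. The progesterone fibroblast-like cells also held other RNA, with hemoglobin and other erythrocyte markers at 6045 CPM against 55.8 in the control and basal markers at 2946 against 1395, and all 5 erythrocyte markers were read in the progesterone library against 3 of 5 in the control. The 8 fibroblast markers summed to 30272 CPM in the control and 19781 in the progesterone library. Per UMI of Dcn, Col1a1 and Col3a1, Apoe was 0.177 in the control and 0.138 in the progesterone library. The part of this other RNA in the lower Apoe and Apod levels was not tested.

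Apod was almost a fibroblast gene in both libraries. Of 152 Apod UMIs in all control cells 95.4% were in fibroblast-like cells, and of 243 in the progesterone library 94.2%. In fibroblast-like cells 145 control UMIs made 1618 CPM [1365 to 1904], and 229 progesterone UMIs made 577 CPM [505 to 657]. The level was 2.80-fold lower in the progesterone library [2.26 to 3.47]. Over all cells, in which fibroblast-like cells were a small share, it was 7.56 CPM [6.40 to 8.86] and 6.38 CPM [5.60 to 7.23], a ratio of 0.84 [0.69 to 1.04].

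Within fibroblast-like cells Apod was concentrated. A UMI was read in 37.7% [26.9 to 49.4] of control cells and 31.0% [22.8 to 40.3] of progesterone cells. Thinned to 1000 UMIs, the shares were 35.1% [20.2 to 52.5] and 16.8% [10.3 to 25.3]. At 500 UMIs, over every cell, they were 26.0% [16.6 to 37.2] and 16.4% [10.2 to 24.4], with intervals that overlapped. A single control cell held 48 of the 145 UMIs (33.1%) and a single progesterone cell 43 of the 229 (18.8%), and the 8 highest control and 12 highest progesterone cells held 77.2% and 83.4%. In cluster 22 Apod was at 1618 CPM in the control and 788 CPM in the progesterone library, 2.05-fold lower [1.65 to 2.54]. Cluster 27 had 3 UMIs of Apod, at 27.2 CPM. Per UMI of Dcn, Col1a1 and Col3a1, Apod was 0.067 in the control and 0.039 in the progesterone library. With the stricter filter on cells the log2 difference was −0.76 in place of −1.49, with each cell weighted equally −0.78, and without cluster 27 −1.04.

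Apod and Apoe were read in overlapping but not identical fibroblast-like cells. In the control library 19 of 77 cells had a UMI of both, 31 of Apoe alone, 10 of Apod alone and 17 of neither. In the progesterone library 31 of 116 had both, 55 Apoe alone, 5 Apod alone and 25 neither. Schwann cell markers, a list that would point to glial sources of Apod, were at 0 in control fibroblast-like cells for all 5 genes and at 0 for 4 of 5 in the progesterone library.

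Outside fibroblast-like cells Apod was at the limit of detection. Basal-like cells had 4 UMIs in each library, or 0.62 CPM [0.17 to 1.59] without and 0.20 CPM [0.05 to 0.51] with hormone treatment, and their ratio of 0.32 [0.06 to 1.71] includes 1. Luminal-like cells had 1 and 7 UMIs with a ratio of 1.61 [0.21 to 72.6]. Suprabasal-like cells had 1 and 2 UMIs, and macrophage-like cells 0 and 1, too few for a ratio. For the 0 of 169 control macrophage-like cells a level of up to 10.0 CPM (3 counts) is allowed. No Apod UMI was read in neutrophil-like, erythrocyte-like, monocyte-like or blood endothelium-like cells of either library. Carried over at the ratio of fibroblast-like cells, the Dcn, Col1a1 and Col3a1 UMIs in progesterone basal-like cells would bring 3.53 Apod UMIs, against the 4 read. In control basal-like cells they would bring 0.606, also against 4.

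The lists set beside the 2 genes cover other apolipoproteins, other lipocalins, receptors, sterol efflux, lipid storage and cholesterol synthesis. In suprabasal-like and luminal-like cells the list values are sums over clusters that the libraries filled unequally. No list values within clusters were taken for these classes, so a difference there may be one of clusters. Among 17 other apolipoproteins, 5 had at least 20 UMIs in basal-like cells. Of these, 3 were at least 2-fold higher in the progesterone library and 0 lower, beside 9.17% higher and 7.39% lower among all genes. Their median log2 difference, which is the value of Apoc1, was 1.00 against −0.01 for all genes of the class. Over the 10 with at least 1 UMI it was 0.48. Apoc1, which lies beside Apoe and encodes a small lipoprotein protein, had 23.7 CPM in the control and 47.5 in the progesterone library, 2.00-fold higher [1.69 to 2.39]. In cluster 6 alone it was at 55.8 and 60.5 CPM with a ratio of 1.08 [0.77 to 1.57], in cluster 7 its ratio was 2.09 [1.44 to 3.05], and in cluster 10 it was 1.40 [0.86 to 2.43]. The other 2 were Apol9a (2 and 71 UMIs) and Apol9b (1 and 54 UMIs), interferon-induced genes so alike in sequence that reads may be split between them. In luminal-like cells 1 of 5 apolipoproteins was at least 2-fold higher and 2 were lower, beside 16.0% and 6.49% of all genes. Their median was −0.23 against 0.20 for all genes. Clusterin (Clu), a secreted chaperone, had 397 CPM in the control and 121 CPM in the progesterone library, and Apol7a 33.5 and 15.3 CPM.

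Suprabasal-like cells had 3 apolipoproteins with 20 UMIs and none past 2-fold, beside 7.03% higher and 5.95% lower among all genes of the class. Apoc1 there, at 13.8 and 26.0 CPM, had a ratio of 1.89 [1.42 to 2.50]. In fibroblast-like cells the single one with enough UMIs, Clu, was 2.46-fold lower in the progesterone library [1.22 to 4.79], from 15 and 27 UMIs. No other apolipoprotein reached 20 UMIs in macrophage-like cells.

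Of the 11 other lipocalins, Lcn2, an iron-siderophore carrier of innate defence, was much lower in the progesterone library in each epithelial class. It had 57.5 and 18.8 CPM in basal-like cells, 1029.6 and 68.4 CPM in suprabasal-like cells, and 5372 and 186 CPM in luminal-like cells, where it was 28.9-fold lower [27.6 to 30.2]. Lcn2 was among the top genes of suprabasal cluster 4 (1008 control and 44 progesterone cells) and luminal cluster 9 (290 and 30). These class values therefore set unlike clusters against each other. Rbp4, the retinol carrier, was the opposite in luminal-like cells with 1 control and 328 progesterone UMIs, which makes a ratio of 75.5 [13.5 to 2991]. In fibroblast-like cells Rbp4 had 8 and 12 UMIs and a ratio of 0.34 [0.13 to 0.96]. Lipocalins with at least 20 UMIs were 1 in basal-like, 2 in suprabasal-like, 3 in luminal-like and 1 in fibroblast-like cells. Of these, 1, 2, 2 and 1 were at least 2-fold lower in the progesterone library, where 7.39%, 5.95%, 6.49% and 8.20% of all genes were.

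Among 9 receptors for apolipoprotein E and D, 7 had 20 UMIs in basal-like cells, 0 were at least 2-fold higher and 1 was lower, with a median log2 difference of 0.07 against −0.01. That is near the 9.17% higher and 7.39% lower among all genes of the class and is not a result about the receptors. That 1 was Lrp8, the ApoE receptor 2, with 12.4 CPM in the control and 1.93 in the progesterone library, 6.44-fold lower [4.34 to 9.69]. Bsg, a receptor for apolipoprotein D, had 312 and 262 CPM. Lrp1, an endocytic receptor for apolipoprotein E, was lower in 2 stromal classes of the progesterone library. It had 491 and 234 CPM in fibroblast-like cells, 2.10-fold lower [1.43 to 3.03], and 144 and 59.7 CPM in macrophage-like cells, 2.41-fold lower [1.38 to 4.38]. Trem2, a lipid receptor of macrophages that binds apolipoprotein E, had 311 and 223 CPM there. Sorl1 was 2.30-fold higher in suprabasal-like cells [1.85 to 2.85] and Scarb1, an HDL receptor, 4.07-fold higher in luminal-like cells [1.32 to 20.3] from 3 and 53 UMIs.

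Sterol efflux genes, which share liver X receptor control with Apoe, numbered 7 with 20 UMIs in basal-like cells. All 7 were within 2-fold, beside 9.17% higher and 7.39% lower among all genes of the class, so this count is not a result about the efflux genes. Their median log2 difference was 0.17 against −0.01. Within clusters the median was −0.50 in cluster 6 against −0.15 for all genes of the cluster, −0.70 in cluster 10 against −0.30, and 0.08 in cluster 7 against 0.02, so that its sign turned in 2 of these 3 clusters. Abca1 had 19.99 CPM in the control and 27.5 CPM in the progesterone library with a ratio of 1.38 [1.13 to 1.68], Mylip a ratio of 1.49 [1.30 to 1.73], and Pltp, a phospholipid transfer protein, 84.9 and 103 CPM with a ratio of 1.21 [1.10 to 1.34]. In cluster 10 Pltp had a ratio of 0.64 [0.48 to 0.86], while those of clusters 6 and 7, at 1.22 [0.98 to 1.54] and 1.14 [0.91 to 1.42], had intervals that include 1. In macrophage-like cells 9 of 10 had 20 UMIs. Of these, 1 was at least 2-fold higher and 1 lower, beside 5.67% and 7.83% of all genes, with a median of 0.26 against −0.09. Abca1 had 147 and 119 CPM there and Abcg1 46.8 and 59.7 CPM, and both ratio intervals include 1 (0.51 to 1.28 and 0.61 to 2.75). In luminal-like cells Abca1 was 3.42-fold lower [2.57 to 4.53].

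Cholesterol synthesis genes lay lower in basal-like cells of the progesterone library. All 22 had at least 20 UMIs, 8 were at least 2-fold lower and 0 higher, beside 7.39% lower among all genes of the class, and their median log2 difference was −0.81 against −0.01. Squalene epoxidase (Sqle) had 42.0 CPM in the control and 13.5 CPM in the progesterone library, 3.10-fold lower [2.61 to 3.68]. Mvd was 3.02-fold lower, Cyp51 2.16-fold and Fdps 2.16-fold.

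Within basal clusters 6, 7 and 10 this difference was small. Basal clusters 2, 3 and 25 were not examined for it, and cluster 3 held 449 control and 14 progesterone cells. In cluster 6 the median over the 20 genes with enough UMIs was −0.11, against −0.15 for all genes of the cluster. In cluster 7 it was −0.19 over 21 genes against 0.02, and in cluster 10 it was −0.20 over 20 genes against −0.30. Sqle had 19.1 and 6.08 CPM in cluster 6, a ratio of 0.32 [0.17 to 0.65], and its ratio was 0.88 [0.62 to 1.23] in cluster 7 and 1.44 [0.57 to 4.67] in cluster 10. The same genes were within 2-fold in all 21 suprabasal-like cases, where 7.03% of all genes were at least 2-fold higher and 5.95% lower. In luminal-like cells 1 of 21, Dhcr7, was 2.07-fold higher [1.45 to 3.05], where 16.0% of all genes were at least 2-fold higher.

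**Figure D4:**
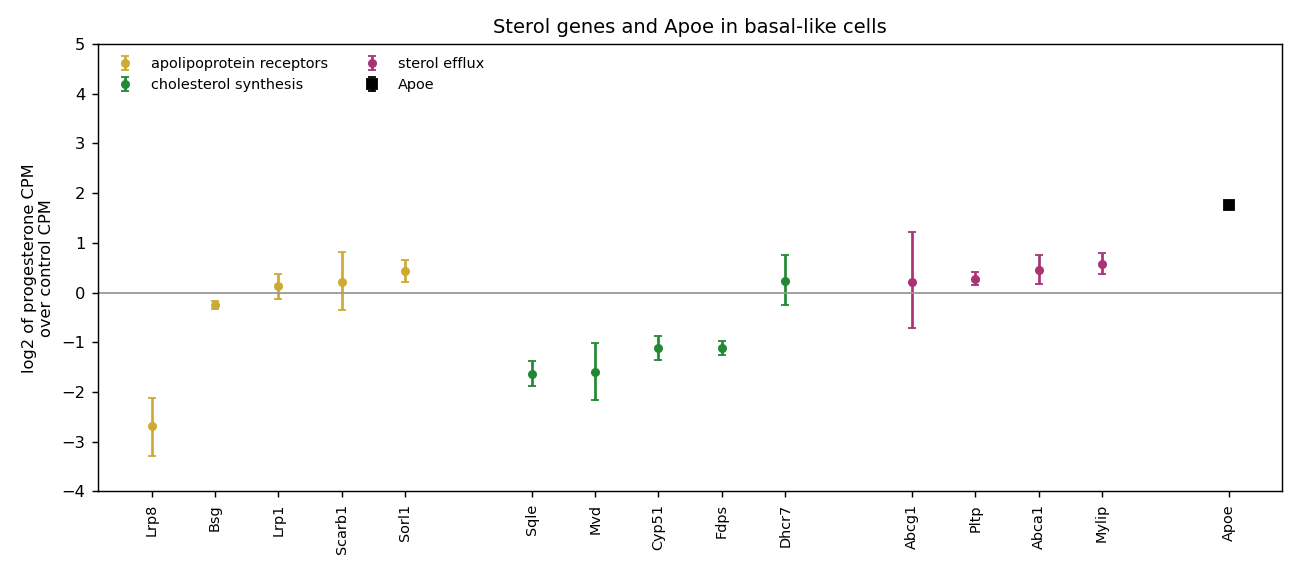
Log2 of progesterone over control CPM in basal-like cells for receptors (yellow), cholesterol synthesis genes (green), sterol efflux genes (purple) and Apoe (black), with 95% counting intervals. The genes shown are those of these lists named in the text that had at least 20 UMIs in the class, in order within each list. Apoe stands at 1.77, the efflux genes shown lie between −1 and 1, and the synthesis genes shown other than Dhcr7 lie below −1.

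Of the 9 genes of lipid storage and lysosomal lipid handling, Fabp5, a fatty acid carrier of keratinocytes and macrophages, was the farthest from equal levels. It was 8.37-fold lower in basal-like [8.12 to 8.63], 16.1-fold lower in suprabasal-like [15.4 to 16.9], 18.4-fold lower in luminal-like [16.1 to 21.1] and 13.3-fold lower in macrophage-like cells of the progesterone library [8.69 to 21.3]. It was at 960 and 72.3 CPM in the last of these. Suprabasal cluster 5, with Fabp5 among its top genes, held 341 control cells and 1 progesterone cell. Within basal clusters 6 and 10 the Fabp5 ratios of 0.496 [0.442 to 0.560] and 0.356 [0.321 to 0.395] were closer to equal levels than in the summed cells. Cluster 7 had a ratio of 0.104 [0.0956 to 0.113]. In basal-like, suprabasal-like and macrophage-like cells Fabp5 was the only gene of the list past 2-fold, where 7.39%, 5.95% and 7.83% of all genes were at least 2-fold lower. Soat1, which esterifies cholesterol for storage, had 29.1 and 122 CPM in luminal-like cells, 4.19-fold higher in the progesterone library [3.31 to 5.37]. In fibroblast-like cells 3 genes of the list had 20 UMIs and 0 were past 2-fold, beside 10.1% higher and 8.20% lower among all genes of the class.

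The genes whose pattern was most like that of each member were found over 30 clusters within library, each with at least 50 cells, by Pearson correlation of log2(CPM + 10) among 11842 genes. For Apoe they were Fads1 (r = 0.91), a fatty acid desaturase, Pltp (0.89), Man2a2 (0.86), Rasa4 (0.85) and Trim35 (0.85). In macrophage-like cells Pltp had 157 and 188 CPM with a ratio of 1.20 [0.80 to 1.80], beside 4.37 for Apoe. For Apod they were Col1a1 (0.997), Sfrp4 (0.996), Col1a2 (0.996), Meg3 (0.995) and Loxl1 (0.995), whose values are set mainly by the 2 fibroblast-like points. In fibroblast-like cells Sfrp4, a secreted Wnt antagonist, had 446 and 222 CPM, and Col1a1, a collagen chain, 1060.0 and 680.4 CPM. The points share libraries, depth and cell classes, and the correlations are descriptions.

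**Figure D5:**
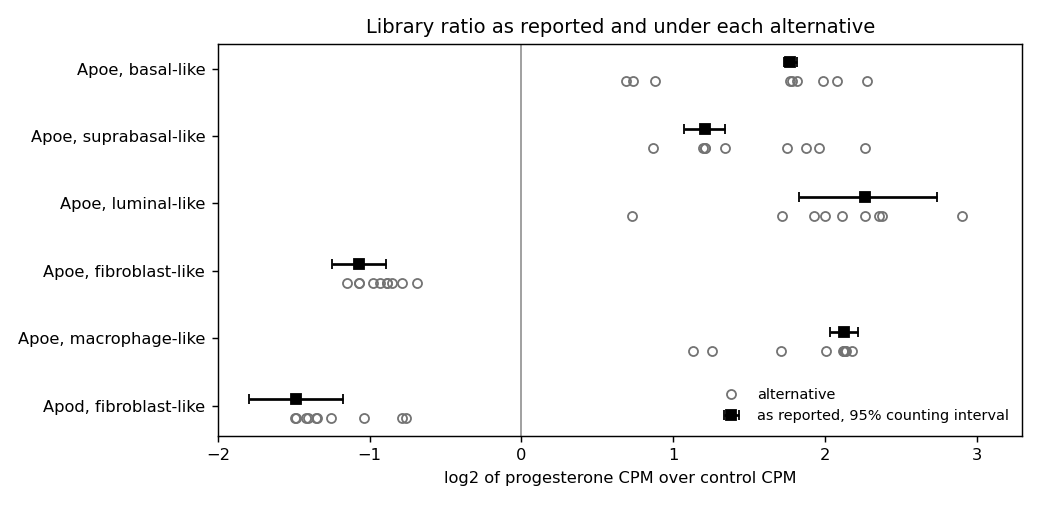
Log2 of progesterone over control CPM for Apoe in 5 classes and Apod in fibroblast-like cells. Black squares are the values in the text with 95% counting intervals, and open circles are the same value under other processing choices. Every circle lies on the same side of 0 as its square, at 0.69 to 2.28 for Apoe in basal-like and −1.15 to −0.69 for Apoe in fibroblast-like cells.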

How the data were processed

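Cells of the mouse cervix were counted in 1 control and 1 progesterone library, per the labels. The deposited matrices hold UMI counts as whole numbers that the authors did not normalise, and Cell Ranger 3.0.2 and the mm10 build are named in the submitters' processing notes. The annotation used for counting is not given in the sources used here. Of the 31053 gene identifiers 30934 are in GENCODE M21 (GRCm38), the source of the positions given. Empty droplets and a vehicle-treated library were not used here.

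A filter of 200 genes or more and 20% mitochondrial UMIs or less removed 608 control and 1632 progesterone barcodes. The highest Scrublet scores, at 0.8% per 1000 cells, were removed as doublets (181 and 680). Cells of both libraries were clustered together with scanpy 1.11.5 after scaling to 10000 counts, on 2000 variable genes, 30 principal components and 15 neighbours, at Leiden resolution 1. Mitochondrial genes, Apoe, Apod and the other list genes, 79 in all beside the mitochondrial ones, took no part. Names came from marker sets for 20 classes. A name needed a mean log2 marker score of at least 0.75, a lead of 0.5 over the next class and 3 detected markers, and a cluster that mixed another tissue's markers with 2000 CPM of Krt5 or more got no name. Clusters found mostly in 1 library may reflect that library and not a cell type. The members, lists and naming thresholds were chosen with earlier results of these data known.

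The UMIs of a gene in a class were added up by library and expressed as CPM. Intervals at 95% are exact Poisson for levels, Clopper-Pearson for shares and conditional binomial for ratios, and they cover counting error only. With 1 library per group there was no test. Genes with at least 20 UMIs in a class were compared, and 2-fold was the size counted. A level with 0 counts was given a floor of 3 counts. For the medians of log2 differences over lists and over all genes, a count of 0.5 was added to both sums. The log2 differences of Apoe and Apod are those of the ratios, with nothing added. Genes named from the lists were those at least 2-fold apart with at least 50 UMIs and an interval that leaves out 1, at most 5 per list and class. Others were named after their values were seen: Rbp4 and Clu in fibroblast-like cells, and Bsg, Trem2, Abca1, Abcg1, Mylip, Pltp and Apoc1 beyond the classes in which the rule takes them. Some genes of the lists enter the counts and medians but are not reported here by name.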

Additional observations from a re-analysis of the deposited data

Results flagged for a closer look

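Apoe went opposite ways in different cell classes of the same 2 libraries. Its log2 difference, progesterone over control, was 1.77 in basal-like, 1.21 in suprabasal-like, 2.27 in luminal-like and 2.13 in macrophage-like cells, and −1.07 in fibroblast-like cells. At 500 UMIs a cell, the shares of luminal-like cells with a UMI lay below those of neutrophil-like cells. The shares of suprabasal-like cells overlapped those of neutrophil-like cells, which does not separate their own RNA from free RNA because the suprabasal-like cells are deeper. The difference is therefore not read as a direction of the class in luminal-like or suprabasal-like cells. With 1 library per group the difference between classes was not tested. In fibroblast-like cells the UMIs per cell were 4.95 in the control and 6.93 in the progesterone library, so the count per cell was higher there although the level in CPM was lower. At 500 UMIs a cell the share with a UMI was 50.6% and 53.4%, and the median depth of these cells was 962 and 2688 UMIs.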

How the results depend on the processing

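For Apoe in the 5 classes and Apod in fibroblast-like cells, no alternative turned the direction. Over all results, 41 of 68 alternative log2 differences stayed within the counting interval of the reported one. The 41 include those for Apod in basal-like and luminal-like cells. Their intervals, −4.07 to 0.78 and −2.27 to 6.18, are so wide that staying within them says little. Without removal of doublets, Apoe was 2.08 in basal-like, 2.27 in suprabasal-like, 2.90 in luminal-like, −0.79 in fibroblast-like and 1.25 in macrophage-like cells. With each cell weighted equally it was 0.73, 0.86, 1.72, −0.69 and 2.01, and Apod in fibroblast-like cells −0.78. With a cell filter of 500 genes or more and no more than 10% mitochondrial UMIs, Apoe was 0.69 in basal-like and −0.89 in fibroblast-like cells and Apod −0.76. With the libraries clustered apart, Apoe was 2.28 in basal-like, 1.75 in suprabasal-like and 1.71 in macrophage-like cells. At resolution 2 it was 1.82 in basal-like and 1.96 in suprabasal-like cells, and without mitochondrial, ribosomal and the 20 most abundant genes 1.98 in basal-like cells. Alternatives chosen after seeing the data gave, for the mean over clusters, 0.88 in basal-like, 1.87 in suprabasal-like and 0.73 in luminal-like cells. They gave −0.85 for Apoe and −1.04 for Apod without fibroblast cluster 27, −0.89 for Apoe without the highest fibroblast-like cell of each library, and 1.13 in macrophage-like cells with cluster 11. For the alternatives in doublets, cell filter, resolution and separate clustering, cells were clustered and named anew, so the cells of each class changed too. The cause of these shifts was not tested. With every gene of at least 1 UMI, 10 of 28 list medians moved by 0.5 or more or changed sign, and those of sterol efflux (−0.20) and lipid storage (−0.20) in fibroblast-like and of lipid storage (0.17) in luminal-like cells changed sign. No ratio of Apod could be had in suprabasal-like and macrophage-like cells, and in basal-like and luminal-like cells some alternatives gave none. No paired analysis was possible because each group is 1 library, and for the same reason no replicate could be left out. Depth limited control fibroblast-like cells, with 77 cells and a median of 962 UMIs.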
